A study of Mus musculus with 9 samples.

Results

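Cd44, Vim, Snai1, Snai2, Twist1, Zeb1, Zeb2, Prrx1, Cdh1 and Cdh2 are 10 genes by which a mesenchymal cell state is commonly read, taken by symbol from the 24421 rows of a table of read counts per gene. None of the 10 passed the test between SB28 glioma cells of BAL101553-treated and control mice, where 14.7% of all genes tested passed. Between libraries labelled astrocytes and the BAL101553 tumor cells 8 of the 10 passed, where 85.1% of all genes tested did. The SB28 line, a mouse glioma marked with GFP and luciferase, was implanted into the brains of C57BL/6 mice aged 6 to 8 weeks. BAL101553 is an oral prodrug of a microtubule-targeting agent that activates the spindle assembly checkpoint. The 3 control libraries came from mice given vehicle and harvested on day 21. The 3 BAL101553 libraries came from treated mice harvested on day 35 by the methods of the study and on day 33 by its results, so treatment and time of growth cannot be told apart. The labels call these 6 libraries whole tissue, while the methods describe GFP+ cells sorted as negative for CD45 and CD11b. The other 3 libraries are labelled astrocytes, carry the treatment label BAL101553 and the strain C57BL/6, and their sort and day of harvest are not given in the sources used here. Nothing in the labels says that libraries of a group came from separate mice, so p-values measure the spread between these libraries, which may be technical. In bulk RNA, fewer cells of a type and less RNA per cell cannot be told apart.

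In epithelial-to-mesenchymal transition, cells lose E-cadherin junctions and gain motility, and the transcription factors SNAI1, SNAI2, ZEB1, ZEB2 and TWIST1 repress the E-cadherin gene by binding E-box sequences. Gliomas do not arise from epithelium, but a mesenchymal state marked by CD44 and vimentin is a recognised expression state of these tumors. Astrocytes themselves make vimentin and N-cadherin, and ZEB2 is known in normal glia.

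E-box sequences were also looked for near the 10 genes themselves. Promoter windows from RefSeq on build GRCm38.p6 were searched for CACCTG, a core E-box, on both strands, which is the same as CACCTG or CAGGTG on one strand. Windows of the 250 bases before the annotated start matched 6 of the 10 genes (Cd44, Vim, Snai1, Twist1, Zeb2 and Prrx1). Among their 9 windows only that of Snai1 held the motif, against 17.2% of all 32851 windows. The Snai1 window at chr2:167537945-167538194, plus strand, is shown because Snai1 encodes an E-box-binding repressor and its RNA differed greatly between tumor and astrocyte-labelled libraries. Capitals mark the motif, which begins 126 bases before the start.
Snai1: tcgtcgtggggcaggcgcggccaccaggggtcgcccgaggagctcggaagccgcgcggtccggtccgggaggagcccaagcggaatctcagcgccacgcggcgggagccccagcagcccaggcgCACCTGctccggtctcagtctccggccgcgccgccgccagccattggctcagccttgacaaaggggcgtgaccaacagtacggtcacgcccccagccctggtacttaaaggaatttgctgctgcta
A match of letters is a description of the sequence and not a measured binding site.

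Total counts per library were 24540452 to 28761388 in control, 26667789 to 34013875 in BAL101553 and 22919523 to 29230743 in the libraries labelled astrocytes. At these depths 3 reads, taken as the limit of detection, corresponded to at most 0.135 CPM. Levels are given as CPM, gene counts relative to library size scaled by the TMM method (to a base of 1000000) over all 9 libraries, in the order of replicates 1, 2 and 3. The astrocyte markers Gfap and Aqp4 lay at or below 0.538 and 0.211 CPM in every tumor library, but the 10 astrocyte markers summed to 736 to 1094 CPM there, most of it Gja1, a gap junction gene, with means of 911 CPM in control and 702 CPM in BAL101553. Summed over 10 marker genes each, the libraries labelled astrocytes held 12870 to 15730 CPM of astrocyte markers, but also 11710 to 14580 CPM of oligodendrocyte markers, 2345 to 4967 CPM of choroid plexus and ependymal markers, and 536 to 1086 CPM of microglial and macrophage markers. In the 6 tumor libraries these 3 sums of other cell types reached at most 33.04, 13.22 and 56.03 CPM. Pericyte and mural markers summed to 1264 to 1466 CPM in the libraries labelled astrocytes, 242 to 287 CPM in control and 383 to 406 CPM in BAL101553, mostly Pdgfrb in the tumor libraries. Fibroblast markers summed to 1872 to 2092 CPM in the libraries labelled astrocytes, mostly Apod. The sum was higher in every tumor library, where it was mostly Col1a1 and Col1a2. Apod, Igf2, Islr, Slc6a13, Slc47a1, Lum and Ogn were lower in every tumor library than in every astrocyte-labelled one.

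Cd44 encodes the hyaluronan and osteopontin receptor that marks mesenchymal glioma cells (chromosome 2, 102811141 to 102901665, minus strand, GENCODE M21 annotation of GRCm38). Its level was 582, 672 and 649 CPM in control, 705, 634 and 683 CPM in BAL101553, and 12.2, 10.1 and 11.6 CPM in the libraries labelled astrocytes. The control and BAL101553 ranges overlapped, and every tumor library lay far above every astrocyte-labelled one.

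Vim encodes vimentin, the main intermediate filament protein of mesenchymal cells, which reactive astrocytes also make (chromosome 2, 13573927 to 13582826, plus strand). Its level was 5248, 5305 and 5502 CPM in control, 5022, 5835 and 4760 CPM in BAL101553, and 267, 234 and 338 CPM in the libraries labelled astrocytes. The 3 control values fell inside the BAL101553 range.

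Snai1 and Snai2 encode the zinc-finger repressors Snail and Slug. Snai1 (chromosome 2, 167538195 to 167542814, plus strand) measured 67.2, 56.7 and 75.9 CPM in control, 81.9, 78.2 and 73.3 CPM in BAL101553, and 1.08, 1.28 and 1.36 CPM in the libraries labelled astrocytes. Snai2 (chromosome 16, 14705852 to 14709385, plus strand) measured 14.0, 22.2 and 15.9 CPM in control, 18.9, 22.9 and 20.9 CPM in BAL101553, and 0.247, 0.379 and 0.302 CPM in the libraries labelled astrocytes. Both genes had reads in all 9 libraries, although the astrocyte-labelled levels rested on 35 to 37 reads for Snai1 and 8 to 11 reads for Snai2. Per kb of exon, Snai1 exceeded Snai2 by 3.18 to 5.96 times across the 9 libraries, and the ranges of this ratio in the 3 groups overlapped.

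Twist1 encodes a basic helix-loop-helix factor of mesoderm and neural crest (chromosome 12, 33957671 to 33959829, plus strand). It stood at 54.5, 54.3 and 61.4 CPM in control, 59.5, 66.7 and 65.6 CPM in BAL101553, and 1.05, 0.690 and 1.47 CPM in the libraries labelled astrocytes. One control library lay above the lowest BAL101553 library.

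Prrx1 encodes a paired-type homeobox factor of limb and craniofacial mesenchyme (chromosome 1, 163245119 to 163313710, minus strand). It stood at 361, 366 and 315 CPM in control, 432, 488 and 371 CPM in BAL101553, and 24.0, 23.0 and 26.1 CPM in the libraries labelled astrocytes. Of the 10 genes it was the only one whose control and BAL101553 libraries did not overlap, and the gap was narrow, since the highest control library was at 366 CPM and the lowest BAL101553 library at 371 CPM.

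Zeb1 and Zeb2 encode zinc-finger homeobox repressors of E-cadherin. Zeb1 (chromosome 18, 5591860 to 5775467, plus strand) had 87.2, 119.6 and 103.3 CPM in control, 90.1, 95.1 and 110.2 CPM in BAL101553, and 91.6, 81.7 and 81.5 CPM in the libraries labelled astrocytes. Zeb2 (chromosome 2, 44983632 to 45117395, minus strand) had 84.7, 86.3 and 78.4 CPM in control, 76.9, 95.9 and 84.9 CPM in BAL101553, and 208, 227 and 161 CPM in the libraries labelled astrocytes. The 3 groups of Zeb1 overlapped, whereas every astrocyte-labelled library had more Zeb2 than every tumor library. Per kb, Zeb1 exceeded Zeb2 in all 6 tumor libraries, by 1.93 to 2.69 times, and lay below it in all 3 astrocyte-labelled libraries, at 0.701 to 0.981 times.

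Cdh1 encodes E-cadherin, the adhesion protein of epithelial junctions (chromosome 8, 106603351 to 106670246, plus strand), and Cdh2 encodes N-cadherin of neural and mesenchymal cells (chromosome 18, 16588877 to 16809246, minus strand). Cdh1 was at 0.853, 0.152 and 0.926 CPM in control, 1.06, 0.513 and 0.177 CPM in BAL101553, and 3.98, 1.86 and 3.66 CPM in the libraries labelled astrocytes. These values correspond to 4 to 31 reads in tumor libraries and 54 to 129 reads in the others. Cdh2 was at 217, 239.5 and 258 CPM in control, 236.5, 154 and 264 CPM in BAL101553, and 178, 162 and 167 CPM in the libraries labelled astrocytes. The tumor cells thus held far more N-cadherin than E-cadherin RNA, with a ratio per kb between 126.5 and 896, against 25.4 to 49.4 in the libraries labelled astrocytes. Per kb of the longest transcript the same ratio was 204 to 1445 in tumor libraries and 40.95 to 79.7 in the others. The wide span of the ratio in tumor libraries went with Cdh1 counts as low as 4 and 6 reads.

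**Figure D1:**
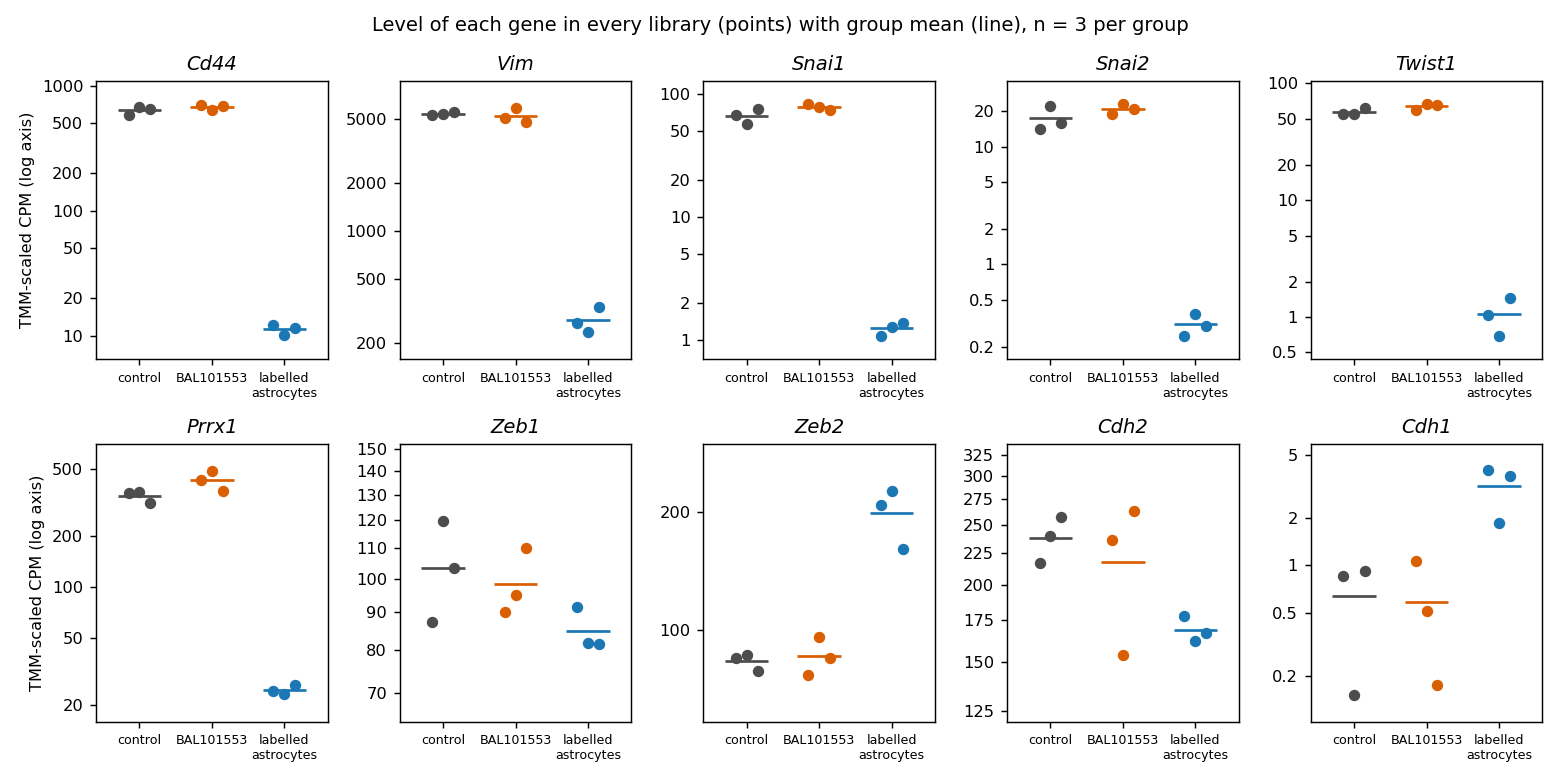
Level of each of the 10 genes in every library, as TMM-scaled CPM on a log axis whose range differs between panels. Points are single libraries and lines are group means of 3. Control and BAL101553 points overlap in every panel except that of Prrx1, and Cd44, Vim, Snai1, Snai2, Twist1 and Prrx1 are lower in all 3 libraries labelled astrocytes while Zeb2 and Cdh1 are higher.

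Annotated genes on the opposite strand overlap 5 of the 10. Zeb2os lies antisense to Zeb2, Gm20471 to Prrx1, Gm15485 to Cdh2 and Gm10125 to Zeb1, and a small nuclear RNA gene, Gm23731, lies opposite Cd44. The libraries were stranded, but the strand setting of the counter is not given in the sources used here, so these 5 levels are uncertain to that extent. On the same strand, Gm26523 and Gm37644 overlap Prrx1, Gm22709 overlaps Zeb1 and Mir5129 overlaps Zeb2. The effect of these overlaps on the counts was not tested.

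Levels were compared between genes as CPM per kb of the union of each gene's exons. In control the order from high to low was Vim, Cd44, Snai1, Twist1, Prrx1, Cdh2, Zeb1, Snai2, Zeb2 and Cdh1. Vim reached 1128 ± 28.1 CPM per kb (SD, n = 3) and Cd44 93.6 ± 6.86, followed by Snai1 at 41.1 ± 5.94 and Twist1 at 34.8 ± 2.50. The ranges of Snai1 and Twist1, of Prrx1 and Cdh2, and of Zeb1 and Snai2 overlapped. Compared within each library, Snai1 exceeded Twist1 and Zeb1 exceeded Snai2 in 3 of 3, while Prrx1 exceeded Cdh2 in 2 of 3. In BAL101553 the order was the same except that Snai2, at 10.34 ± 1.001 CPM per kb, stood above Zeb1, at 9.59 ± 1.02. There the overlapping neighbours were Twist1 with Prrx1 and Snai2 with Zeb1, the first of each pair being higher in 1 of 3 and 2 of 3 libraries.

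The libraries labelled astrocytes had another order, namely Vim, Cdh2, Zeb2, Zeb1, Prrx1, Cd44, Snai1, Cdh1, Twist1 and Snai2. Vim stood first in every group, at 58.9 ± 11.2 CPM per kb here, and Cd44 moved from rank 2 to rank 6 at 1.66 ± 0.160. Cdh2 moved from rank 6 to rank 2 at 20.97 CPM per kb (coefficient of variation 4.77%) and Zeb2 from rank 9 to rank 3 at 9.97 ± 1.69. Zeb2 and Zeb1, Snai1 and Cdh1, and Cdh1 and Twist1 were neighbours with overlapping ranges. Within libraries Zeb2 exceeded Zeb1 in 3 of 3, Snai1 exceeded Cdh1 in 2 of 3 and Cdh1 exceeded Twist1 in 1 of 3. Dividing by the longest transcript instead of all exons left ranks 1 and 2 as they were in each group. It placed Prrx1 at rank 3 in both tumor groups and Snai1 at rank 5 in control and rank 4 in BAL101553. Cdh2 then held rank 4 in control and rank 5 in BAL101553. In BAL101553 Zeb1, at rank 7, then stood above Snai2, at rank 8, and in control Zeb2, at rank 8, above Snai2, at rank 9.

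**Figure D2:**
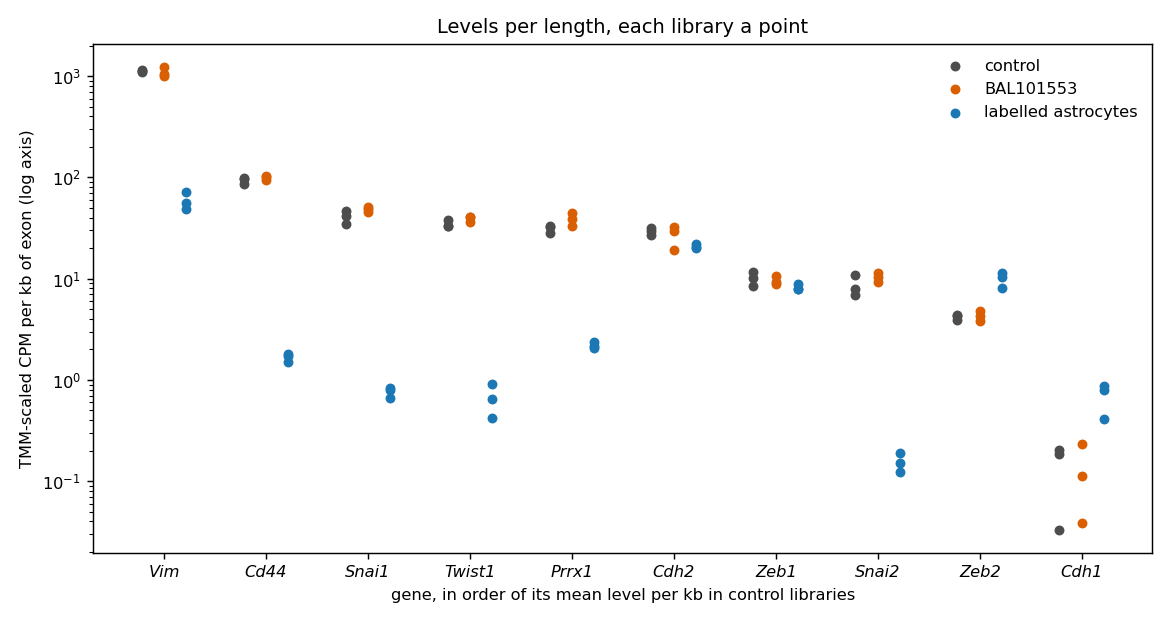
Level per kb of exon of the 10 genes, as CPM per kb on a log axis, in the 3 groups (points, single libraries). The order is nearly the same in control and BAL101553, while Zeb2, Zeb1 and Cdh2 rank above Cd44, Snai1 and Twist1 in the libraries labelled astrocytes.

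The first comparison asked how tumor cells that had grown under BAL101553 differed from those of control mice. None of the 10 genes passed an adjusted p of 0.05 in edgeR's quasi-likelihood test, while 1860 of 12633 genes tested, or 14.7%, did so. None of the 10 passed with DESeq2, edgeR's exact test or limma-trend either. Of all genes tested, 8.64% passed as higher and 6.09% as lower, and with total library size in place of TMM the share of higher genes among those called went from 58.7% to 77.4%. At an unadjusted p under 0.05 the 10 genes counted 1, and the genes tested 4306. Of the 10 genes, 6 had a positive and 4 a negative log2 fold change, with a median of 0.073 beside 0.016 over all genes tested.

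Prrx1, at 347 ± 28.4 CPM in control and 430.4 ± 58.9 in BAL101553 (SD, n = 3), had the smallest p of the 10. Its log2 fold change was 0.32 with a 95% interval of 0.03 to 0.61, and its adjusted p was 0.121 by the edgeR quasi-likelihood test. It was 1 of 10 genes with no overlap between groups, where 39.7% of all genes tested had none, 20.1% higher and 19.6% lower in BAL101553. The value held the same direction with each library left out, at 0.21 to 0.42, and no such fit gave an adjusted p below 0.0833.

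Snai1, Snai2 and Twist1 had positive differences that did not pass. Snai1 had a log2 fold change of 0.23 (95% interval -0.05 to 0.51), Snai2 of 0.27 (-0.15 to 0.69) and Twist1 of 0.18 (-0.04 to 0.40). Their adjusted p-values in the edgeR test were 0.216, 0.333 and 0.227. A rise of Snai2 by more than 1.62-fold and of Snai1 by more than 1.42-fold lay outside these intervals.

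For Cd44, Vim, Zeb1 and Zeb2 the estimates were close to 0. The log2 fold change of Cd44 was 0.09 with a 95% interval of -0.12 to 0.31, so a rise above 1.24-fold lay outside it. That of Vim was -0.03 (-0.29 to 0.22), of Zeb1 -0.06 (-0.37 to 0.24) and of Zeb2 0.05 (-0.19 to 0.30). Their adjusted p-values in the edgeR test were 0.516 for Cd44, 0.850 for Vim, 0.755 for Zeb1 and 0.752 for Zeb2.

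The cadherins were the least precisely measured. Cdh2 had a log2 fold change of -0.12 (-0.55 to 0.30), and BAL101553 2, at 154 CPM, lay below the other tumor libraries. Cdh1 had a log2 fold change of -0.13, and its 95% interval of -1.89 to 1.62 ran from 0.271-fold to 3.07-fold. Its reads were few and its libraries differed widely, with coefficients of variation of 66.5% in control and 76.5% in BAL101553. Whether E-cadherin RNA differed within that interval was therefore not decided.

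**Figure D3:**
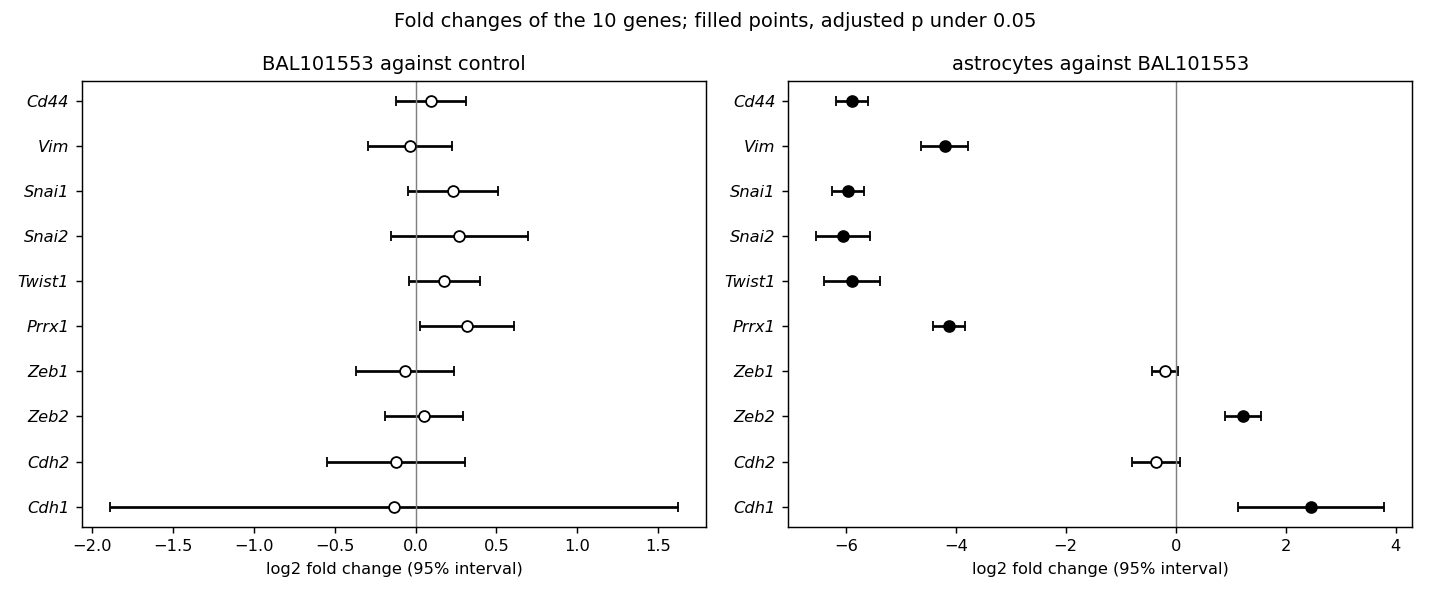
Log2 fold changes of the 10 genes with 95% intervals in both comparisons (n = 3 libraries per group, filled points passed the edgeR test at an adjusted p of 0.05). All points are open for BAL101553 against control, and 8 of 10 are filled for the libraries labelled astrocytes against BAL101553. The axes of the panels differ.

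Genes related to the 10 in function were counted from lists of known roles, and several contained called genes. Of all genes tested 14.7% passed, 8.64% as higher and 6.09% as lower. The list counts below are to be read beside these shares, since some calls occur in any list at that rate. Among 24 mesenchymal effector genes, all tested, 8 were higher and 3 lower in BAL101553, with a median log2 fold change of 0.37. Postn encodes periostin, a matrix protein of fibroblasts, and had 15.8, 28.7 and 21.3 CPM in control against 143, 334 and 134 in BAL101553. Lox encodes lysyl oxidase, which crosslinks collagen, and had 41.0, 35.7 and 48.4 CPM in control against 386, 142 and 215 in BAL101553. No control library of either gene reached the lowest BAL101553 library, and the log2 fold changes were 3.22 (SE 0.40) and 2.57 (SE 0.34), with adjusted p-values of 0.00728 and 0.00787 in the edgeR test.

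The collagen genes Col1a1, Col3a1 and Col5a1, with S100a4, Thy1 and Pdgfrb, made up the other 6 that rose, by 0.40 to 1.68 on the log2 scale. Timp1, an inhibitor of matrix metalloproteases, fell by 1.06, Itgb1, the integrin beta 1 chain, by 0.88 and Acta2, smooth muscle actin, by 0.74. Fn1, fibronectin, had a log2 fold change of 0.36 and an adjusted p of 0.108. With control 3 left out 3 of the 24 genes passed, with control 1 left out 6, and with BAL101553 3 left out 7. Postn, Lox and Itgb1 passed with every single library left out. Summed fibroblast markers, mostly Col1a1 and Col1a2, were 5941 to 6753 CPM in control and 8230 to 9943 CPM in BAL101553. Of the other markers, Dcn had 3.81, 5.68 and 5.39 CPM in control and 15.9, 13.4 and 34.7 CPM in BAL101553. Apod, Ogn and Islr were also higher in every BAL101553 library, while Igf2, Lum and Slc47a1 overlapped between the groups. Slc6a13, a fibroblast transporter gene, had at most 0.0379 CPM in any tumor library. The part of fibroblasts in these rises was not tested.

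Of 18 further transcription factor genes linked to the transition, 15 were tested, with 2 higher, 2 lower and a median of 0.18. Tcf4, an E-protein, rose by 0.62, while Foxc2, a forkhead gene, fell by 1.18 and Sox9 fell by 0.65 on the log2 scale. With control 3 or BAL101553 3 left out none of the 15 passed, and with control 1 left out 1 did.

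Among 20 regulators of the mesenchymal glioma state 1 was higher, Runx2, at 0.56, and 1 lower, Tead2, a partner of YAP, at -0.55. The list's median was 0.06, and none of the 20 passed with any single control library left out, while 1 passed with any BAL101553 library left out. Of 22 signature genes of mesenchymal glioma, 21 were tested, and 4 were higher and 4 lower, with a median of -0.09. Mgp, matrix Gla protein, rose by 2.93 and Cav1, caveolin 1, by 1.37, whereas Anxa2, annexin A2, fell by 0.65 and Plaur, the urokinase receptor, by 0.61. With control 3 left out none of the 21 passed and with control 1 left out 3 did, and with control 2 left out the value of Mgp was 3.81.

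CD44 binds hyaluronan and osteopontin outside the cell and ezrin, radixin and moesin inside it. Of 14 tested genes for its ligands and partners, 2 were higher and 2 lower, with a median of 0.19. Spp1, osteopontin, had 11320, 10390 and 10380 CPM in control and 13920, 16280 and 16100 CPM in BAL101553, a log2 rise of 0.53 (SE 0.11). Cemip, which takes part in hyaluronan breakdown, rose by 0.78, while Msn, moesin, fell by 0.70 and Hyal2, a hyaluronidase, fell by 0.49. None of the 14 passed with control 3 left out, and 2 did with control 1 or BAL101553 3 left out.

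Cadherin and catenin genes numbered 11 tested, with 0 higher, 2 lower and a median of -0.15. Cdh6 fell by 0.67 and Cdh5, the endothelial cadherin, by 0.52 on the log2 scale, and neither passed with control 1, control 3 or BAL101553 3 left out, while Cdh5 alone passed with control 2 left out. Cdh5 was abundant in the tumor libraries at 764 ± 60.4 CPM in control, while all other endothelial markers together reached at most 119.9 CPM in any tumor library. Of 26 epithelial genes only 10 had enough reads to be tested and none passed in the edgeR test. At an unadjusted p under 0.05 there were 2, namely Tjp1, a tight junction scaffold, with a log2 fold change of 0.30 and adjusted p 0.109, and Pkp1, a desmosomal plakophilin, with -1.34 and adjusted p 0.138. With DESeq2 none of the 10 passed either.

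Proteins that work with SNAI and ZEB factors or turn them over gave 1 higher and 1 lower of 19 tested, with a median of -0.09. Rcor1, the CoREST corepressor, rose by 0.65 and Ctbp2, a corepressor that ZEB proteins bind, fell by 0.38 on the log2 scale. With control 3 left out none of the 19 passed, and with control 1, BAL101553 1 or BAL101553 3 left out 1 did. Of 8 genes tested from a list of intermediate filament proteins and their linkers beside Vim, Dst rose by 0.89, while Nefm, a neurofilament chain, fell by 2.27 and Nes, nestin, fell by 1.07. Nes had 748, 532 and 657 CPM in control and 361, 270 and 289 CPM in BAL101553, so its groups did not overlap, and with control 3 left out 1 of the 8 genes passed. Dst encodes dystonin, a plakin that links filaments to other structures and is not itself a filament protein. Of 5 tested proneural genes, Pdgfra, a receptor of platelet-derived growth factor, rose by 0.95 and no gene passed as lower, whereas 1 did with BAL101553 2 left out, with DESeq2, with edgeR's exact test, with a filter of at least 1 count in any library and with all 9 libraries in one model.

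The second comparison set the 3 libraries labelled astrocytes against the 3 BAL101553 tumor libraries, which carry the same treatment label and are shared with the first comparison. Here 8 of the 10 genes passed, 6 lower and 2 higher. In this comparison 85.1% of 15314 genes tested passed, 46.3% higher and 38.9% lower, so a passing gene was the common case. The groups of the same 8 genes did not overlap, against 87.8% of all genes tested, 47.6% higher and 40.2% lower. The median log2 fold change was -4.16 for the 10 genes and 0.18 for all genes tested, and the latter became 0.39 when libraries were scaled by total size.

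Snai2, Snai1, Twist1 and Cd44 had the largest differences of the group. Snai2 was 66.2-fold lower in the libraries labelled astrocytes, with a log2 fold change of -6.05 (SE 0.21). Snai1 was 62.3-fold lower at -5.96 (SE 0.13), Twist1 59.3-fold lower at -5.89 (SE 0.22) and Cd44 59.2-fold lower at -5.89 (SE 0.12). The intervals of these 4 values overlapped, so their order was not resolved. Vim was 18.4-fold lower at -4.20 (SE 0.18) and Prrx1 17.4-fold lower at -4.12 (SE 0.13). Adjusted p-values of the 6 genes in the edgeR test lay between 1.12e-08 for Cd44 and 2.65e-07 for Vim.

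Zeb2 and Cdh1 went the other way. Zeb2 was 2.34-fold higher in the libraries labelled astrocytes, with a log2 fold change of 1.23 (SE 0.14) and an adjusted p of 6.88e-05 in the edgeR test. Cdh1 was 5.51-fold higher at 2.46 (SE 0.57, adjusted p 0.00386 in the edgeR test), with a 95% interval of 2.20 to 13.8-fold, and with BAL101553 1 left out its log2 fold change was 3.24. Of the libraries labelled astrocytes 1, 2 and 3, choroid plexus and ependymal markers summed to 2345, 2882 and 4967 CPM, microglial and macrophage markers to 536, 1086 and 823 CPM, and oligodendrocyte markers to 14000, 14580 and 11710 CPM. Astrocyte markers summed to 15730, 12870 and 14310 CPM in these libraries. Across the same libraries Cdh1 was lowest in the second, where the astrocyte sum was also lowest. Zeb2 was lowest in the third, where the oligodendrocyte sum was also lowest. The part of these cell types in the levels of Zeb2 and Cdh1 was not tested.

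Zeb1 and Cdh2 did not pass. Zeb1 had a log2 fold change of -0.20 (95% interval -0.43 to 0.04, adjusted p 0.101 in the edgeR test), and Cdh2 of -0.35 (-0.79 to 0.09, adjusted p 0.112). Each depended on 1 library. Zeb1 passed at -0.28 with adjusted p 0.0401 when BAL101553 1 was left out, and Cdh2 passed at -0.57 with adjusted p 0.000477 when BAL101553 2, its lowest tumor library, was left out. With total library size the Zeb1 value was 0.0048, so its sign was not fixed.

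More genes of the related lists passed here than in the first comparison, as did genes at large. Of 24 mesenchymal effector genes 24 were lower in the libraries labelled astrocytes than in BAL101553, from -0.60 for Pdgfrb to -8.45 for Timp1, with a median of -5.66. Pdgfrb overlapped with control, at 217.1, 265.9 and 249.1 CPM in control and 232.7, 245.5 and 227 CPM in the libraries labelled astrocytes. Of 20 mesenchymal glioma regulators 18 were lower and 1 higher, with a median of -2.45 and Fosl1, an AP-1 subunit, at -9.36. Of 22 signature genes 21 were lower, among them Lgals1, galectin 1, at -7.46. The exception was Chil1, the mouse counterpart of CHI3L1, with 49.99 ± 4.29 CPM (SD, n = 3) in the libraries labelled astrocytes and at most 1 read in any BAL101553 library.

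Of 16 further transcription factor genes of the transition, 9 were lower and 4 higher, with a median of -1.25. Twist2, the paralog of Twist1, had 36.4 ± 7.25 CPM in BAL101553 and at most 4 reads in a library labelled astrocytes, whereas Tbx3 had 6.21 ± 0.243 CPM in the latter and at most 2 reads in BAL101553 libraries. Among 15 genes for CD44 ligands and partners 9 were lower and 5 higher, with a median of -3.37. Has1, a hyaluronan synthase, had 5.69 ± 2.09 CPM in BAL101553 and 0 reads in the libraries labelled astrocytes. Cd74, the invariant chain of MHC class II, was higher at 7.47, and it varied widely between those libraries, at 56.9 ± 45.1 CPM.

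Epithelial genes and cadherins moved in both directions. Of 19 epithelial genes tested 12 were higher and 2 lower, with a median of 1.34. Mal2, a gene of apical transport, had 0.923 ± 0.216 CPM in the libraries labelled astrocytes and 0 reads in BAL101553, while Pkp1 was lower at -7.28. Of 19 cadherin and catenin genes 9 were higher and 7 lower, with a median of 1.04. Cdh20 had 85.4 ± 5.02 CPM in the libraries labelled astrocytes and at most 3 reads in a BAL101553 library, and Cdh6 was lower at -6.11.

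Of 19 genes for cofactors and turnover of SNAI and ZEB proteins 15 were lower and 2 higher, with a median of -0.80, Rcor1 at -2.79 and Fbxl5, part of a ubiquitin ligase, at 0.86. Of 10 genes of the intermediate filament list 7 were lower, led by Lmna, lamin A/C, at -4.61, and 3 were higher, led by Gfap, the astrocyte filament gene, at 8.24. Proneural genes had 10 higher and 2 lower of 13 tested and a median of 6.52, or 5.18 with genes at or under 3 reads in a group set at that bound. Bcan, brevican, was higher at 12.46, and Pdgfra was lower at -5.28, having 320.3 ± 15.3 CPM in BAL101553 against 8.17 ± 1.01.

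**Figure D4:**
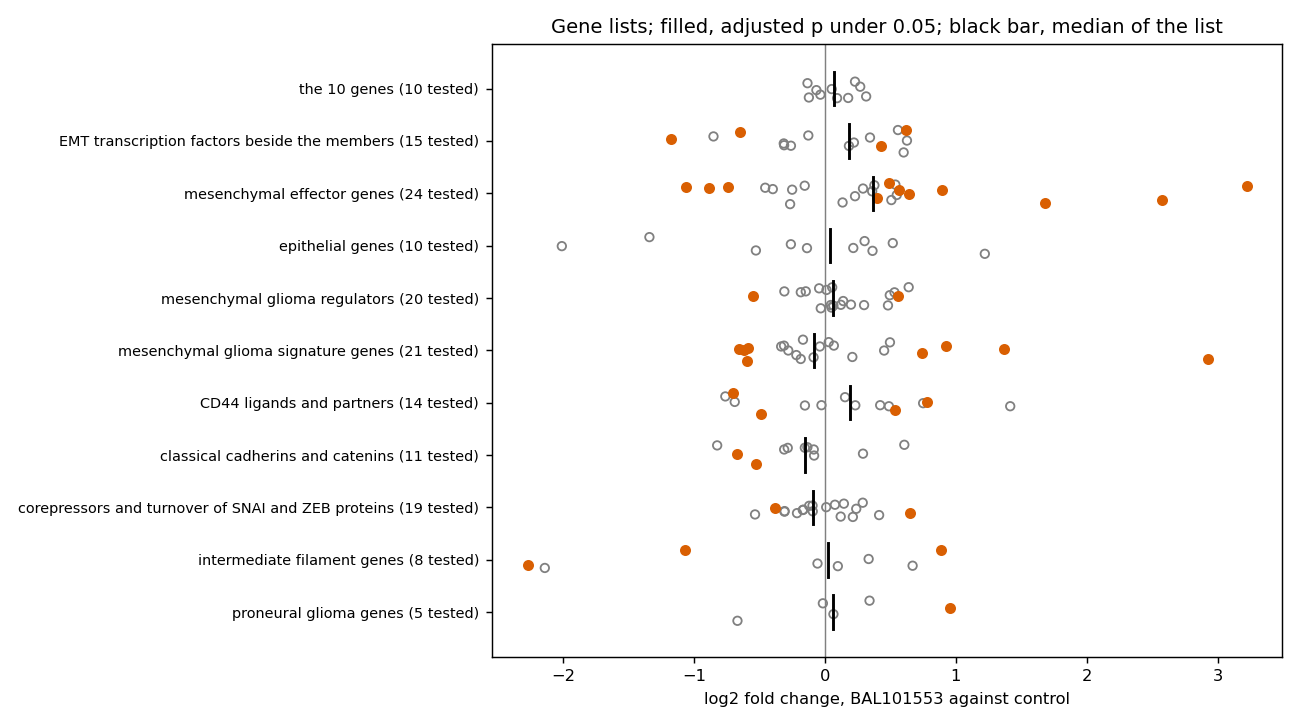
Log2 fold changes of the tested genes of each list for BAL101553 against control. Points are genes and lines are medians, with called genes filled. The first row holds the mesenchymal state genes themselves. Medians of the lists lie between -0.15 and 0.37.

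Finally, each of the 10 genes was set against the 13673 genes with enough reads, by the mean absolute difference over the 9 libraries between log2 CPM profiles centred on their own means. For Cd44 the nearest were Myof, a membrane repair gene, at 0.085 and Lamb1, a laminin chain, at 0.105. Snai1 was nearest to Fn1 at 0.0819 and Tnfrsf10b at 0.121, Snai2 to Arhgap22 at 0.176 and Myof at 0.180, and Vim to Angptl2 at 0.0781 and Cers6 at 0.101. Twist1 was nearest to Lamb1 at 0.148 and then to Cd44 at 0.160, the only case in which another of the 10 was among the nearest 2. Prrx1 was nearest to Peak1 at 0.0906 and Gfpt2 at 0.0939.

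The remaining genes had other neighbours. Zeb1 was nearest to Rpap2 at 0.0491 and Zfand5 at 0.0492, Zeb2 to Adi1 at 0.0688 and Ncoa3 at 0.0698, and Cdh2 to Bod1 at 0.0596 and Samd14 at 0.0644. The nearest genes of Cdh1, Ndrg1 at 0.387 and Rragd at 0.479, were farther away, and its levels rested on few reads in the tumor libraries. All these distances are descriptions over 9 libraries that fall into 3 groups.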

How the data were processed

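RNA from 9 libraries was analyzed, 3 each of control and BAL101553 SB28 cells and 3 labelled astrocytes, grouped by their labels. The table deposited by the authors gives raw counts per gene as whole numbers, and per the labels they used TopHat, HTSeq 0.6.1 and build mm10. All 9 count columns belong to a sample. The authors' paper states 2 ex vivo samples per group, while the table holds 3.

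Counts were tested in R 4.3.3 with edgeR 4.0.16 (filterByExpr, TMM, quasi-likelihood test, two-sided, Benjamini-Hochberg over all genes tested, threshold 0.05), each fit holding only the groups compared. Standard errors were obtained from each log2 fold change and its F statistic, and intervals use the same error. On simulated counts, 64% of 200 genes changed 2-fold were recovered for BAL101553 against control among 12528 genes, with 10 false calls. Depth was 22919523 to 34013875 counts per library. Libraries of a group differed beyond sampling noise.

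The 10 genes and the lists were chosen with earlier results of these data known. From each list, the largest called rises and falls without overlap were named (2 each, or 1 each for the libraries labelled astrocytes), or the 2 lowest p. Fn1, Pdgfrb, the fibroblast markers named singly and the remaining called effector genes were chosen after their values were seen. A few genes of the lists are not reported here by name, while counts use each list whole. Lengths came from GENCODE M21. Alternatives included DESeq2 1.42.0, limma-trend (limma 3.58.1), other scalings and filters, all 9 libraries in one fit, left-out libraries and a replicate block.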

Additional observations from a re-analysis of the deposited data

How the results depend on the processing

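For BAL101553 against control, none of the 10 genes passed under any of the 17 alternatives, while the number of all genes called moved from 1860 to 2832 with DESeq2, 3022 with all 9 libraries in one model and 1 with 2 libraries per group (control 3 and BAL101553 1 left out). With single libraries left out it lay between 193, without control 3, and 1712, without BAL101553 2. Counts of called genes in this comparison, list counts included, therefore depend on the libraries used. Prrx1 came nearest to the threshold with total library size, at adjusted p 0.0530. Among the 10 genes, 10 of 169 values changed sign, and none of these passed. Under total library size the log2 fold change was 0.049 for Vim and 0.022 for Zeb1. With 2 libraries per group that of Vim was 0.0088. With single libraries left out the values ranged from -0.13 to 0.030 for Vim, -0.18 to 0.041 for Zeb1, -0.039 to 0.13 for Zeb2, -0.28 to 0.072 for Cdh2 and -0.92 to 0.32 for Cdh1. For the libraries labelled astrocytes against BAL101553, only Zeb1 changed sign, to 0.0048 with total library size and 0.027 with at least 10 counts in every library, a filter that left Snai2 and Cdh1 untested. The cause was not tested. Libraries share replicate numbers across groups, and correlations of same-numbered deviations were 0.102, 0.00547 and 0.112 for control and BAL101553. Those of different numbers ran from -0.147 to 0.0528. These values do not settle whether the numbers mark pairs, and the main test did not use them as pairs. With the replicate block 1371 and 12815 genes passed in the 2 comparisons, and 0 and 8 of the 10 genes, while 2 epithelial genes passed in the first comparison. Depth limits chiefly Cdh1 in the tumor libraries and Snai2 in the libraries labelled astrocytes.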
